A study of Mus musculus with 4 samples.

Results

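Type A intercalated cells, the acid-secreting cells of the collecting duct, were taken from single-cell RNA-Seq of dissociated mouse kidney. A kept barcode had 200 to 5000 detected genes and under 50% mitochondrial UMIs, a UMI (unique molecular identifier) being 1 counted RNA molecule. Such a barcode was counted as a type A cell when Atp6v1g3 plus Atp6v0d2 reached at least 5 UMIs and at least 10 per 10000, when Slc4a1, Kit and Aqp6 together had more UMIs than Slc26a4 and Hmx2 together, and when Slc34a1 plus Lrp2 stayed under 10 per 10000. This gave 1030 type A cells of 34789 kept barcodes, among 58660 deposited. The cells were chosen by the RNA of these genes, so the levels of those genes describe the choice and support nothing further.

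The study asked how a high-fat diet and loss of the glucose cotransporter SGLT2, encoded by Slc5a2, change the kidney. WT-ND and WT-HFD were wild-type male C3H mice, of the substrain C3H/HeJ by the study's methods, on a normal diet (ND) or a diet with 60% of calories from fat (HFD). SP-ND and SP-HFD were male C3H mice homozygous for Sweet Pee, a missense mutation in Slc5a2, on the same diets. Diets began at 10 weeks of age and lasted 8 weeks, so all kidneys came from mice of 18 weeks. There was 1 library per condition, and the sources used here do not give the number of mice in each. No difference between conditions therefore has a replicate check, no p-value is given, and a condition cannot be told apart from its library. Slc5a2 is a gene of the proximal tubule, and in the type A cells it was at 12 CPM for WT-ND and 13.2 for WT-HFD, against 1.74 for SP-ND and 2.8 for SP-HFD, in counts per 1000000 UMIs (CPM). A missense mutation need not lower the RNA, so this level does not check the labels. Cells came from whole kidney through enzymatic digestion, and a share of cells here is a share of recovered cells.

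Type A intercalated cells pump protons into the urine with a vacuolar H+-ATPase (V-ATPase) and return bicarbonate to the blood through the anion exchanger AE1, the product of Slc4a1. Cytosolic carbonic anhydrase, encoded by Car2, supplies both ions, and the ammonia channels Rhcg and Rhbg carry ammonia alongside. Their sister cells, the type B cells, secrete bicarbonate through pendrin, the product of Slc26a4, and both types depend on the forkhead transcription factor Foxi1.

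The WT-HFD library stood apart in how firmly its cells met the rule. Only 1 of Slc4a1, Kit and Aqp6 was found in 51 of its 255 type A cells, and in 37 of these the gene was Aqp6. The corresponding numbers were 7 of 296 for WT-ND, with 3 of 176 for SP-ND and 3 of 303 for SP-HFD. In WT-HFD 35 cells exceeded the type B genes by a single UMI, against 5, 3 and 5 in those libraries. Barcodes with equal type A and type B UMIs, left out of both types, numbered 79 in WT-HFD and 12, 9 and 7 in the other libraries in the same order. Both counts were 0 in 64 of these in WT-HFD and in 8, 8 and 6 in the others. Umod, the uromodulin gene of the thick ascending limb, reached 10 UMIs per 10000 in 32.2% of the type A cells of WT-HFD, against 7.77%, 6.82% and 11.6% in the others. A stricter choice, with at least 3 type A UMIs and no type B UMI, kept 241 cells for WT-ND and 175 for WT-HFD, with 160 for SP-ND and 268 for SP-HFD. Its values are given for the shares, the counts of genes past 2-fold and the genes and lists described most closely, and wherever it ended a call named below. The limit on Slc34a1 plus Lrp2, genes of the proximal tubule, left out 206 barcodes of WT-HFD that met the rest of the rule, against 24, 2 and 2 in the other libraries. A choice of cells with no such limit, made after the data had been seen, is called the unlimited choice below.

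Near the limits of the rule, 17 type A cells had exactly 5 UMIs of Atp6v1g3 plus Atp6v0d2, and 27 barcodes with 4 lay just outside. A rate of 10 to 12 per 10000 was seen in 21 type A cells, and 24 barcodes at 8 to 10 were left out. For Slc34a1 plus Lrp2, 29 type A cells were at 8 to 10 per 10000 and 42 barcodes at 10 to 12 were left out, 33 of them in WT-HFD.

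The median UMI count per type A cell was 7489.5 for WT-ND and 12174 for WT-HFD, then 12443.5 for SP-ND and 12789 for SP-HFD, and the summed cells held 2583153, 3034607, 2301069 and 3935103 UMIs. WT-ND cells were the shallowest. The median mitochondrial share was 23.5%, 25.2%, 28.2% and 23.3% in the same order. Between 54 and 77 barcodes were shared by a pair of libraries, and 0 were type A cells in both.

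All 3 of Slc4a1, Kit and Aqp6 were found in 843 of the 1030 cells, 2 of them in 123 and 1 in 64. CPM are the UMIs of a gene per 1000000 UMIs of the summed cells of a library. A series of 4 values gives the wild-type pair and then the SP pair, each with ND before HFD. Slc4a1 was at 571, 635, 651 and 855 CPM in type A cells, and at 0, 3.5, 0 and 1.78 CPM in lymphocytes of the same libraries, which should lack it. Atp6v1g3, a pump subunit of intercalated cells, was at 3405, 4046, 3552 and 4741 CPM. Kit, a receptor tyrosine kinase, was at 593, 368, 516 and 425 CPM.

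Of the type B genes of the rule, Slc26a4 was at 46.5, 29, 23.9 and 48.3 CPM in type A cells and at 1601, 1236, 1619.7 and 1713 CPM in type B cells, which were chosen by the same rule with the comparison of type A and type B UMIs turned around and numbered 195, 227, 119 and 153. As both choices use Slc26a4, this gap follows from the rule. Type B markers outside the rule were not all low in type A cells. The 7 listed summed to 784, 737, 783 and 844 CPM in type A cells and 2053, 1705, 2105 and 2437 CPM in type B cells. Spink8, a protease inhibitor gene, was at 226, 325, 246 and 371 CPM in type A cells and 1098, 989.7, 1168 and 1333 CPM in type B cells. Slc4a9, a basolateral anion exchanger gene, was at 153, 79.1, 146 and 100.4 and 405, 293, 441 and 517 CPM, and was found in 61.8%, 44.3%, 68.8% and 54.5% of type A cells. Oxgr1, an oxoglutarate receptor gene on the same list, was at 387, 319, 383 and 357 and 288, 231, 230.5 and 289 CPM, higher in type A cells in each library. Dgki was at 0 in both types in each library. Hmx3 was at 0 in the type A cells of all but WT-ND, and at 9.24, 3.19, 14.2 and 8.88 CPM in type B cells. Igf1 was at most 3.95 CPM in type A cells and at 0.44, 4.11, 1.09 and 3.14 CPM in type B cells.

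**Figure D1:**
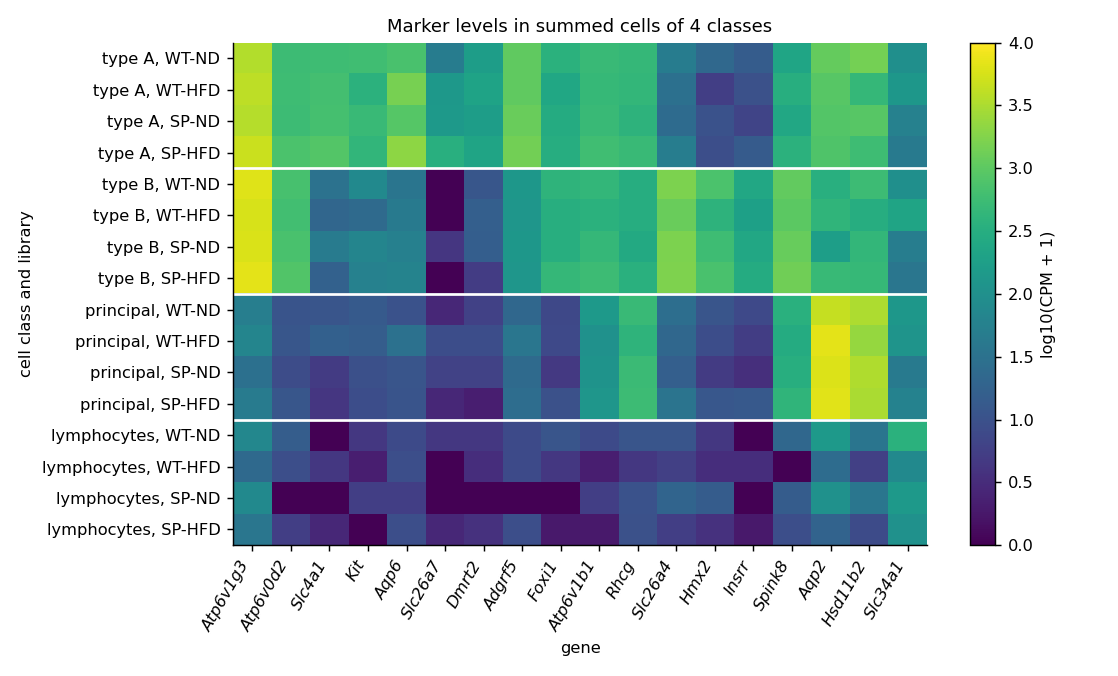
Heat map of log10(CPM + 1) for 18 marker genes (x axis) in the summed cells of 4 classes in each of the 4 libraries (y axis). Aqp6 and Slc26a7 are brighter in the type A rows than in the rows of the other 3 classes, while Foxi1 and Atp6v0d2 are bright in both intercalated types.

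Outside the genes of the rule, 125 of 1428 genes compared (8.75%) were at least 2-fold higher in type A cells than in all other kept barcodes in each of the 4 libraries, and 161 (11.3%) were at least 2-fold lower. Since the cells were chosen by their RNA, this describes the class and tests nothing. The highest mean log2 ratio over the libraries belonged to Dmrt2, a transcription factor gene of the doublesex family, at 6.50 ± 0.85 (SD, n = 4). It was at 167, 205, 166 and 214 CPM in type A cells. Its neighbour 2610016A17Rik, an antisense RNA gene in the annotation, followed at 6.45 ± 0.98, with 162, 269, 239 and 320.4 CPM. The carbonyl reductase gene Cbr2 was at 5.78 ± 0.56, the mucin gene Muc20 at 4.62 ± 0.35 and Oxgr1, from the type B list, at 4.22 ± 0.22 on the log2 scale.

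Genes of acid-base transport were also among the 20 highest. Rhbg was at 3.98 ± 0.21, Foxi1 at 3.93 ± 0.30, and the pump subunit genes Atp6v1c2 and Atp6v1b1 at 3.45 ± 0.17 and 3.23 ± 0.10 on the log2 scale (SD, n = 4). Adgrf5, an adhesion G protein-coupled receptor gene, was at 3.80 ± 0.20. Mme, which encodes the endopeptidase neprilysin, was at 3.66 ± 0.08, and Guca2a, which encodes guanylin, at 3.60 ± 0.08. The ratios of Mme and Guca2a spread least over the libraries among the 20, and those of 2610016A17Rik spread most.

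Promoters of 3 of these genes are shown because they hold the forkhead core letters TGTTTA, searched on both strands (TAAACA on the other), and Foxi1 is a forkhead factor. They are the 250 bases before the annotated start, from RefSeq on build GRCm38.p6, printed on the strand of the gene with the matched letters in capitals. Of the 20 highest genes 15 had an entry, and 5 of the 15 (33.3%) held the letters, against 13.5% of the 27025 genes of the table. The 5 were Atp6v1b1, Epb41l2, Guca2a, Muc20 and Serpinb9. Of the type A and pump genes of the rule 3 had an entry, and 0 of the 3 held the letters. A match describes letters, and no binding was measured.

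Atp6v1b1, chr6:83742767-83743016, plus strand: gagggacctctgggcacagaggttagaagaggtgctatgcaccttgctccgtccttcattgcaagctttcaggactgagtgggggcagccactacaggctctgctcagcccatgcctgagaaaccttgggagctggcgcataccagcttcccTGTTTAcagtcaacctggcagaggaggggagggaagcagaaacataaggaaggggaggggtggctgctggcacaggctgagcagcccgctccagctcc
Guca2a, chr4:119637482-119637731, plus strand: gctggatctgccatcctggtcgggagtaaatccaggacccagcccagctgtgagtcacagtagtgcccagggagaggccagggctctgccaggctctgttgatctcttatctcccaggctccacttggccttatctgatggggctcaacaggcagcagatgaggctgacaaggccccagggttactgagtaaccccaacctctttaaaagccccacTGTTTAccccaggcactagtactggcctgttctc
Serpinb9, chr13:33004291-33004540, plus strand: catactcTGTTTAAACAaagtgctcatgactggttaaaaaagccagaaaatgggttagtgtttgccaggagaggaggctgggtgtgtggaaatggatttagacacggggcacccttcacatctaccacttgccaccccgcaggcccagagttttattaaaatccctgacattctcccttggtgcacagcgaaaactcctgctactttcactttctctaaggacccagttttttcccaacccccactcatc

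The match began 98 bases before the start in Atp6v1b1 and 34 bases before it in Guca2a. In Serpinb9 the 2 matches, 1 on each strand, overlapped and began 243 and 239 bases before the start. Dmrt2 and 2610016A17Rik run in opposite directions from starts 171 bases apart on chromosome 19, and the stretch between them is shown because it lies upstream of both of the genes highest against other cells. It is printed on the strand of Dmrt2 with the letters CCAAT, searched on both strands (ATTGG on the other), in capitals. They occurred 2 times, and 6.89% of promoter windows of the same length held at least as many.

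Dmrt2 and 2610016A17Rik, chr19:25672240-25672410, plus strand: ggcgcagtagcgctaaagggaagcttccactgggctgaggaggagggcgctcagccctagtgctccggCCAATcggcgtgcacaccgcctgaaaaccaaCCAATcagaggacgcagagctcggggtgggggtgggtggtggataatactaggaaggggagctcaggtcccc

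Against type B cells, 17 of 1309 genes compared were at least 2-fold higher in type A cells in each library (1.3%) and 25 at least 2-fold lower (1.91%). Slc26a7 encodes a basolateral chloride and bicarbonate exchanger known from intercalated cells of the outer medullary collecting duct. It was at 47.2 CPM for WT-ND and 136 for WT-HFD, against 143 for SP-ND and 331 for SP-HFD in type A cells, and at 0, 0, 3.27 and 0 CPM in type B cells. Muc20 was higher in type A cells by a mean log2 ratio of 3.86 ± 0.48, Cbr2 by 3.80 ± 0.10, Adgrf5 by 3.19 ± 0.20 and the small heat shock protein gene Cryab by 2.40 ± 0.74 (SD, n = 4).

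The lowest genes against type B cells were the ribonuclease gene Rnase1 at -4.63 ± 0.68 and Insrr, whose product is a receptor activated by alkaline pH, at -4.62 ± 0.57 on the log2 scale. Igfbp5 was at -3.88 ± 1.42, Stap1 at -3.41 ± 0.14 and Emb at -2.84 ± 0.17. Insrr was at 13.5, 8.9, 5.65 and 13.2 CPM in type A cells and 252, 184, 251 and 285 CPM in type B cells, and each type A value was below each type B value.

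Against principal cells, 78 of 1399 genes compared were at least 2-fold higher in type A cells in each library (5.58%) and 61 at least 2-fold lower (4.36%). Cbr2, Foxi1 and Dkk3, which encodes a secreted Wnt modulator, were among the 10 highest, at 7.49 ± 1.12, 5.59 ± 0.57 and 5.71 ± 0.59 on the log2 scale (SD, n = 4). The lowest was the water channel gene Aqp4, at -3.86 ± 0.27. Genes of principal cells were still present in type A cells. Aqp2, the vasopressin-regulated water channel gene, was at 1146, 925, 837 and 777 CPM in type A cells, 338, 418, 177 and 493 CPM in type B cells and 142, 24.5, 105 and 17.8 CPM in lymphocytes. Type A cells were above both other classes in each library. The tenth of type A cells with most Aqp2 held 62.7%, 65.5%, 67.9% and 71.4% of its UMIs, and at least 10 Aqp2 UMIs per 10000 were seen in 26.4%, 25.1%, 22.2% and 17.2% of the cells. Barcodes with the highest doublet scores made up 16.6%, 7.45%, 10.2% and 22.8% of the type A cells. Of all kept barcodes they made up 8.69%, 7.76%, 5.4% and 5.97% in the same order. Their share was thus higher among type A cells in every library but WT-HFD. The part of these barcodes in the Aqp2 level was not tested.

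S100g and Klk1 were among the genes that varied most among type A cells. Cells with at least 3000 UMIs were thinned to 3000, and the variance over the mean was taken for 3056 genes, whose median was 1.05. S100g, which encodes the calcium-binding protein calbindin-D9k, reached 41.9 as a median over the libraries. The kallikrein gene Klk1 reached 26.4, the thiazide-sensitive cotransporter gene Slc12a3 9.94, Aqp2 8.83, the calbindin gene Calb1 6.45 and the sodium-calcium exchanger gene Slc8a1 6.23. These 6 stood among the 12 most variable genes and were picked after their values had been seen, and the other 6 were Malat1, Gm42418, Tmsb4x, Spp1, Cd74 and Egf. The tenth of cells with most S100g held 58.8%, 65.0%, 52.3% and 67.0% of its UMIs.

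A Slc26a7 UMI was found in 51 of 296 and 61 of 255 wild-type cells on ND and HFD and in 44 of 176 and 113 of 303 SP cells, or 17.2, 23.9, 25 and 37.3%. With each cell thinned to 1000 UMIs, leaving out 1 cell in WT-ND and 1 in SP-ND, the shares were 4.75, 7.06, 7.43 and 19.8%. The exact 95% binomial (Clopper-Pearson) interval of the thinned share was 15.5 to 24.7% in SP-HFD and reached at most 12.4% in the other libraries. In thinned lymphocytes the shares were 0.99, 0, 0 and 0.444%, at median depths before thinning of 2203.5, 3356, 2524 and 2948.5 UMIs.

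Type A cells with a Slc26a7 UMI had less Slc8a1 than those without in each library. Slc8a1 was at 254 against 1023 for WT-ND and 81.9 against 346 for WT-HFD, then 189 against 964 for SP-ND and 66.2 against 328 for SP-HFD, in CPM, a mean log2 ratio of -2.19 ± 0.17 (SD, n = 4). The mean log2 ratio was -3.26 ± 1.35 for S100g, -1.11 ± 0.54 for Calb1 and -0.64 ± 0.33 for Oxgr1. Aqp2 was higher in cells with Slc26a7 by 1.02 ± 0.18 and Foxi1 by 0.33 ± 0.12, while Rhbg differed by 0.05 ± 0.09. The split was chosen after these values had been seen, so they describe it. Aqp6, Slc4a1 and Atp6v1g3, with ratios of 1.23 ± 0.18, 0.63 ± 0.23 and 0.14 ± 0.14, are genes of the rule, and nothing is read from them. Cells with a Slc26a7 UMI were deeper in WT-ND, WT-HFD and SP-ND, with medians of 8821, 15561 and 15210.5 UMIs against 7217, 10577 and 11886.5, and shallower in SP-HFD, with 12200 against 13199.

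Tnn, which encodes the matrix protein tenascin-N, was found almost entirely in cells with Slc26a7. In wild-type mice it had 14 UMIs in cells with Slc26a7 and 0 in cells without on ND, and 464 and 11 on HFD. In SP mice it had 108 and 0 on ND, and 621 and 10 on HFD. Per UMI, Tnn was higher in cells with Slc26a7 by 6.58 in WT-HFD and 6.81 in SP-HFD on the log2 scale. Against a floor of 3 UMIs over the cells without, it was higher by 4.21 in WT-ND and 6.41 in SP-ND. The lower ends of the counting intervals were 3.72 in WT-ND and 6.09 in SP-ND.

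**Figure D2:**
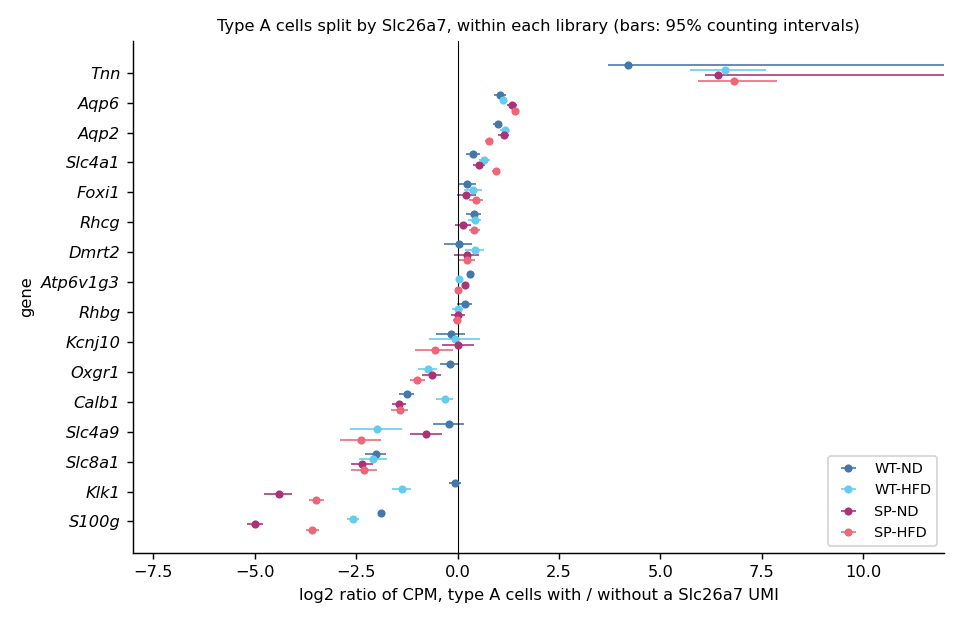
Log2 ratio of CPM between type A cells with and without a Slc26a7 UMI (x axis) for 16 genes (y axis), 1 point per library with its 95% counting interval. The points of Tnn, Aqp6, Aqp2 and Slc4a1 lie above 0 and those of Slc8a1, Calb1 and S100g below 0 in all 4 libraries, Aqp6 and Slc4a1 being genes of the rule; 2 intervals of Tnn have no upper bound and run to the edge.

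By the rule as given, the share of type A cells was highest in SP-HFD. Of kept barcodes it was 2.72% (95% Clopper-Pearson interval 2.43 to 3.05%) for WT-ND and 2.63% (2.32 to 2.97%) for WT-HFD. For the SP libraries it was 2.61% (2.24 to 3.01%) on ND and 4.06% (3.62 to 4.53%) on HFD. The SP-HFD interval overlapped none of the others, which overlapped one another. The unlimited choice gave shares of 2.94%, 4.75%, 2.64% and 4.09%, with WT-HFD highest and its interval (4.34 to 5.19%) overlapping that of SP-HFD (3.65 to 4.56%), so the order of the HFD libraries rests on that limit. These and all later intervals cover counting error only. Principal cells, chosen by Aqp2 and Hsd11b2, also had their highest share in SP-HFD, with 4.03%, 4.40%, 5.30% and 6.83%. Per principal cell there were 0.676, 0.597, 0.492 and 0.594 type A cells, and on that scale WT-ND was highest.

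Of type A and type B cells together, type A cells were 60.3% (55.8 to 64.6%) for WT-ND and 52.9% (48.3 to 57.4%) for WT-HFD. For the SP libraries they were 59.7% (53.8 to 65.3%) on ND and 66.4% (61.9 to 70.8%) on HFD. WT-HFD was lowest and SP-HFD highest, and their intervals did not overlap. The unlimited choice gave 59.0%, 52.6%, 58.7% and 66.6%, in which WT-HFD (49.2 to 55.9%) was again lowest and SP-HFD (62.1 to 70.9%) highest. With the stricter choice the shares of kept barcodes were 2.22%, 1.80%, 2.37% and 3.59%, and those of type A plus type B cells were 68.9%, 64.8%, 70.8% and 75.1%.

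**Figure D3:**
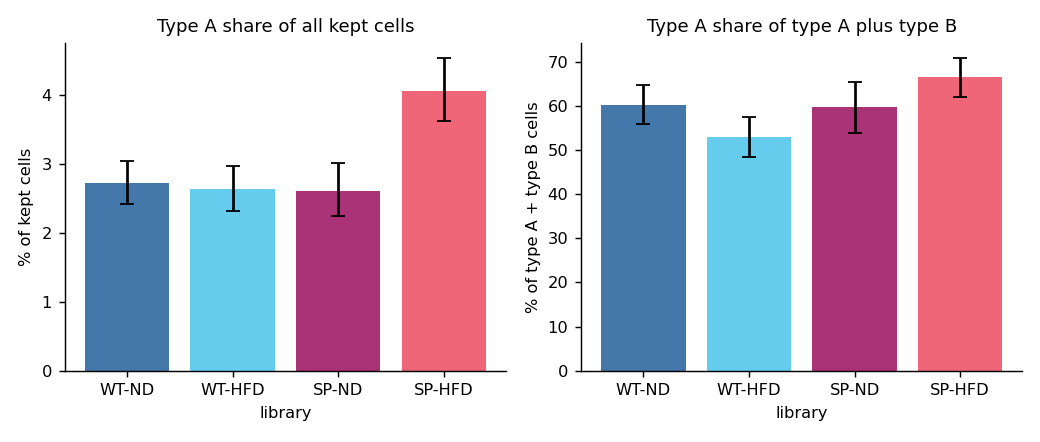
Type A cells in each library (x axis) as a percentage of kept barcodes (left, y axis) and of type A plus type B cells (right, y axis). Bars give the share and whiskers its exact 95% binomial interval, and SP-HFD has the highest bar in both panels, at 4.06% and 66.4%.

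HFD was compared with ND within each genotype, in 2 comparisons that share no library. A gene was compared when it had at least 50 CPM in the type A cells of either library, and folds of 2 or more were counted. In wild-type mice 91 of 2937 genes passed 2-fold (3.1%), 37 higher (1.26%) and 54 lower (1.84%) on HFD. In SP mice 38 of 2891 passed (1.31%), 15 higher (0.519%) and 23 lower (0.796%). The stricter choice left 85 genes past 2-fold in WT and 48 in SP. With the highest doublet scores removed the counts were 100 and 83, and with mitochondrial UMIs under 30% they were 106 and 75. Under the unlimited choice they were 212 and 39. The median log2 ratio of all genes compared was -0.07 in WT and 0.11 in SP.

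Among 2733 genes compared in both genotypes, 15 were at least 2-fold lower on HFD in both, which was 34.1% of the 44 lower in WT and 68.2% of the 22 lower in SP. Another 12 were at least 2-fold higher in both, 46.2% of 26 in WT and 85.7% of 14 in SP, and 0 passed 2-fold in opposite directions. With the stricter choice these counts were 19, 13 and 0. With the barcodes of highest doublet score removed they were 34, 13 and 4, and with 10% of the library profile subtracted 17, 9 and 2. Of the 15 genes lower in both, 14 stayed so with the stricter choice, the exception being mt-Nd6, and 14 with the highest doublet scores removed, the exception being Kl. All 12 genes higher in both stayed so with the stricter choice and with the highest doublet scores removed. With the profile subtracted all 15 stayed lower in both and 9 of the 12 higher, without Igha, Igkc and Pck1. Under the unlimited choice 13 of the 15 stayed lower in both, the exceptions being Adh1 and mt-Nd6, and 9 of the 12 stayed higher in both, the exceptions being Aqp6, Fam241a and Slc26a7.

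**Figure D4:**
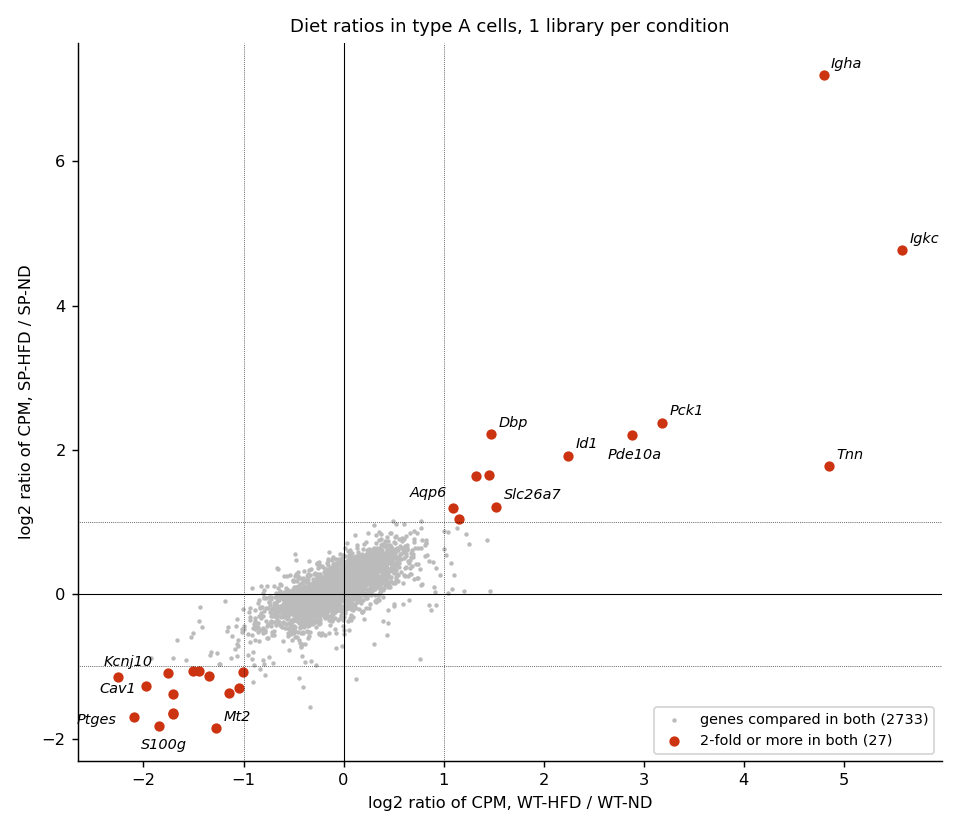
Log2 ratio of CPM in type A cells for WT-HFD over WT-ND (x axis) and SP-HFD over SP-ND (y axis), 1 point per gene compared in both, 2733 genes. Red marks the 27 genes past 2-fold in the same direction in both genotypes, dotted lines mark 2-fold, and no gene passes 2-fold in opposite directions.

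S100g, Calb1, Slc8a1 and Kl were among the 15 genes lower on HFD in both genotypes, and are described first because their levels were the highest of the 15. Each of the 15 was at a higher level in principal cells than in type A cells in every library. The part of principal cell RNA in their ratios was not tested. S100g was at 6577 CPM in type A cells for WT-ND and 1829 for WT-HFD, against 6876 for SP-ND and 1943 for SP-HFD. In principal cells it was at 16328, 4619, 15684 and 4058 CPM. In type A cells the comparison between diets was as follows. Both HFD libraries were below both ND libraries, with a log2 ratio of -1.85 (-1.89 to -1.80) in WT and -1.82 (-1.86 to -1.78) in SP, the bracket being the exact conditional binomial 95% interval. S100g was lower on HFD in type B cells (-1.71 and -2.39) and principal cells (-1.82 and -1.95) as well, and in lymphocytes it was at 360.4, 53.7, 375 and 44.4 CPM. An S100g UMI was found in 88.9, 82, 95.5 and 78.5% of type A cells and 55.7, 23.2, 46 and 18.4% of lymphocytes, and after thinning to 1000 UMIs in 54.9, 41.6, 56 and 35.6% and 29.7, 6.67, 24.7 and 6.22%.

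Calb1 was at 1024, 314, 1059.5 and 337 CPM, with log2 ratios of -1.71 in WT and -1.65 in SP. Slc8a1 was at 868, 265, 734 and 235 CPM, with ratios of -1.71 and -1.65. In both genes each ND library was above each HFD library. In type B cells the ratios were -1.19 and -1.49 for Calb1 and -1.17 and -1.83 for Slc8a1. In principal cells they were -0.95 and -0.70 for Calb1 and -0.94 and -1.27 for Slc8a1. Kl, which encodes klotho, the coreceptor of the hormone FGF23, was at 489.7, 192, 455 and 207 CPM, with ratios of -1.35 and -1.14. With the highest doublet scores removed the WT and SP ratios were -1.33 and -2.21 for S100g, -1.38 and -2.89 for Calb1, -1.22 and -2.27 for Slc8a1 and -0.95 and -1.62 for Kl, so the SP ratios of the first 3 lay further from 0 and the WT ratio of Kl fell short of 2-fold. The Kl ratios were -0.66 and -1.28 in type B cells and -0.77 and -0.82 in principal cells. Under the stricter choice the WT ratios were -1.92 for S100g, -1.66 for Calb1, -1.69 for Slc8a1 and -1.39 for Kl.

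Kcnj10, Kcne1 and Cav1 were also among the 15. Kcnj10, a basolateral potassium channel gene of the distal nephron, was at 170.3 CPM for WT-ND and 35.6 for WT-HFD, against 113 for SP-ND and 51.3 for SP-HFD, with a log2 ratio of -2.26 (-2.58 to -1.95) in WT and -1.14 (-1.42 to -0.87) in SP. The channel subunit gene Kcne1 was at 187, 55.7, 127 and 60.0 CPM, with ratios of -1.75 and -1.09. Cav1, which encodes a coat protein of caveolae, was at 158, 40.2, 134 and 55.4 CPM, with ratios of -1.97 and -1.27. All 3 were lower in both HFD libraries than in both ND libraries. In type B cells the ratios were -0.97 and -0.90 for Kcnj10, -0.42 and -0.10 for Kcne1, and -1.05 and -0.35 for Cav1, and in principal cells they were -1.26 and -0.92, -0.68 and -0.36, and -1.24 and -0.88 in that order. Under the stricter choice the WT ratios in type A cells were -2.19 for Kcnj10, -1.53 for Kcne1 and -1.90 for Cav1. With the highest doublet scores removed the WT and SP ratios were -2.24 and -1.58 for Kcnj10, -1.72 and -2.20 for Kcne1 and -2.15 and -1.89 for Cav1.

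The rest of the 15 were the prostaglandin E synthase gene Ptges, the Kit ligand gene Kitl, the vasopressin receptor gene Avpr2, the metallothionein gene Mt2, Adh1, Npnt, Tmem229a and mt-Nd6. In WT the log2 ratios of those other than mt-Nd6 ran from -2.09 (Ptges) to -1.05 (Npnt). Closest to 2-fold was mt-Nd6, at 257 CPM for WT-ND and 129 for WT-HFD, against 216 for SP-ND and 102 for SP-HFD, and its WT ratio was -0.99 with the stricter choice. In SP all 8 ran from -1.85 (Mt2) to -1.06 (Kitl).

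Of the 12 genes higher on HFD in both genotypes 11 lay outside the rule. The other was Aqp6, an aquaporin gene of intracellular vesicles, which was at 707 CPM for WT-ND and 1514 for WT-HFD, against 896 for SP-ND and 2056 for SP-HFD, with HFD to ND log2 ratios of 1.10 in WT and 1.20 in SP. Of the type A genes of the rule Aqp6 alone was found in 37 cells of WT-HFD and 3 of WT-ND, so its levels describe the choice of cells. Slc26a7 and Tnn were low in type B and principal cells. Tnn was at 0, 0, 0 and 2.09 CPM in type B cells and 5.62, 16.7, 5.54 and 7.96 CPM in principal cells.

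Slc26a7, at the levels given above, had a log2 ratio of 1.53 (1.23 to 1.83) in WT and 1.21 (1.04 to 1.39) in SP. In order of level, WT-ND was lowest and SP-HFD highest, and the intervals of WT-HFD (123 to 150 CPM) and SP-ND (128 to 159 CPM) overlapped. Tnn was at 5.42, 157, 46.9 and 160.4 CPM, with ratios of 4.85 (4.09 to 5.73) and 1.77 (1.48 to 2.08), and a Tnn UMI was found in 1.35, 8.63, 4.55 and 16.8% of cells. With the stricter choice the WT and SP ratios were 1.58 and 1.28 for Slc26a7 and 4.85 and 1.84 for Tnn. With the unlimited choice they were 0.98 and 1.22 for Slc26a7, in WT just short of 2-fold, and 3.13 and 1.77 for Tnn. In the GENCODE annotation of GRCm38 these genes span chr15:99601400-99605477 (Aqp6), chr4:14502430-14621805 (Slc26a7) and chr1:160085029-160153580 (Tnn).

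Diet ratios were also taken among the cells with a Slc26a7 UMI alone. In these cells the HFD to ND log2 ratios in WT and SP were -2.17 and -1.54 for Kcnj10, -1.83 and -1.65 for Cav1, -1.14 and -0.99 for Kcne1, -0.86 and -1.57 for Calb1, and -1.63 and -1.51 for Slc8a1. For S100g they were -2.35 (-2.52 to -2.18) and -0.32 (-0.58 to -0.07). Of these 6 genes, Calb1 in WT and Kcne1 and S100g in SP were short of 2-fold.

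**Figure D5:**
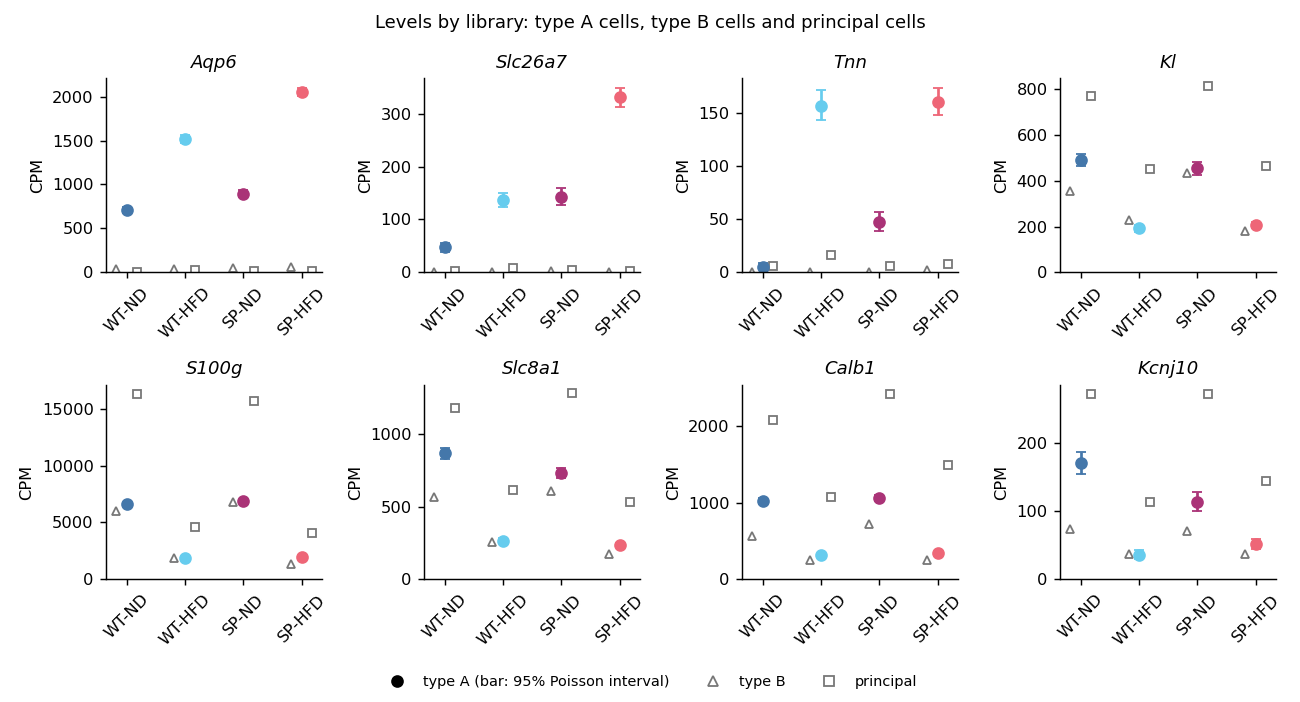
CPM (y axis, from 0) of 8 genes in each library (x axis) in type A cells, with exact 95% Poisson intervals, and in type B cells (triangles) and principal cells (squares). In type A cells Aqp6 (a gene of the rule), Slc26a7 and Tnn are higher on HFD in each genotype and S100g, Slc8a1, Calb1, Kcnj10 and Kl lower, and the last 5 are lower on HFD in the other 2 classes too.

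The other 9 genes higher in both were Dbp, Tef, Id1, Pde10a, Igkc, Igha, Pck1, Fam241a and Gng11. The clock-controlled factor gene Dbp was at 31, 86.3, 21.7 and 101 CPM and its relative Tef at 27.9, 76.5, 25.6 and 80.8 CPM. The HFD to ND log2 ratios of Dbp in WT and SP were 1.48 and 2.22 in type A cells, 1.50 and 2.37 in type B cells, 2.89 and 4.42 in principal cells and 1.68 and 2.81 in all other kept barcodes. Those of Tef were 1.46 and 1.66 in type A cells, 1.32 and 2.07 in type B cells, 1.87 and 2.21 in principal cells and 0.68 and 1.25 in all other kept barcodes. The hour at which each kidney was taken is not given in the sources used here. Id1, an inhibitor of helix-loop-helix factors, was at 26.7, 127, 16.1 and 61 CPM, and the phosphodiesterase gene Pde10a at 8.9, 65.9, 10.9 and 50.1 CPM. The ratios of Pde10a were 2.89 and 2.20 in type A, 2.93 and 3.90 in type B and 4.05 and 3.48 in principal cells, and those of Id1 were 2.25 and 1.92, 3.28 and 3.56, and 1.02 and 0.99. Igkc and Igha, antibody genes of plasma cells, were at 18.6, 893, 3.48 and 94.5 and 13.5, 377, 0.435 and 63.5 CPM, and Pck1, a gluconeogenic gene of the proximal tubule, at 25.2, 229, 16.9 and 88.2 CPM. With 10% of the summed library profile subtracted, Igha, Igkc and Pck1 were no longer among the genes past 2-fold in both genotypes, and the other 9 of the 12 were.

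Other genes passed 2-fold between diets in WT and not in SP. Hsd11b2, which inactivates glucocorticoids in aldosterone target cells, was at 1458 CPM for WT-ND and 461 for WT-HFD, against 899.6 for SP-ND and 579 for SP-HFD, with log2 ratios of -1.66 in WT and -0.64 in SP, and with the highest doublet scores removed it passed 2-fold in SP too, at -1.93. Hes1, a Notch target gene, was at 398, 168, 256 and 132 CPM, with ratios of -1.24 and -0.96, and in SP it passed 2-fold at -1.05 with the stricter choice and -1.05 with the highest doublet scores removed. Gata2, a GATA factor gene, was at 147, 54.4, 81.7 and 72.4 CPM, with ratios of -1.43 and -0.17. Cbr2 was at 166, 388, 231 and 410.2 CPM, with ratios of 1.22 and 0.83, and with the unlimited choice the former was 0.86, short of 2-fold. Whether these diet ratios differ between the genotypes was not tested.

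SP was compared with WT within each diet, in comparisons that use the same 4 libraries as the diet comparisons and are not independent of them. On ND 18 of 2864 genes passed 2-fold (0.628%), 4 higher (0.14%) and 14 lower (0.489%) in SP, and 20 with the stricter choice. On HFD 54 of 2839 passed (1.9%), 3 higher (0.106%) and 51 lower (1.8%) in SP, and 30 with the stricter choice. The counts on ND and HFD were 34 and 68 with the highest doublet scores removed, 28 and 16 with Slc34a1 plus Lrp2 under 3 per 10000, and 31 and 145 with the unlimited choice. The median log2 ratio of all genes compared was -0.05 on ND and 0.13 on HFD. Slc26a7 was higher in SP on both diets, by 1.59 (1.29 to 1.91) on ND and 1.28 (1.12 to 1.44) on HFD, and by 1.46 and 1.16 with the stricter choice and 1.43 and 1.66 with the unlimited choice.

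Serpinb9, a gene for an inhibitor of granzyme B, was at 338 CPM for WT-ND and 247 for WT-HFD, against 495 for SP-ND and 458 for SP-HFD. Both SP libraries were above both WT libraries, by a log2 ratio of 0.55 (0.42 to 0.68) on ND and 0.89 (0.77 to 1.02) on HFD. Gdf15, a stress-induced cytokine gene, was at 453, 260.0, 225 and 161 CPM, with ratios of -1.01 and -0.69. Both SP libraries were below both WT libraries, and with the stricter choice the ND ratio was -0.94 and with the unlimited choice -0.94, both short of 2-fold. The Gdf15 ratios were -1.85 and 0.16 in type B cells and -0.40 and 0.07 in principal cells.

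Klk1 was at 1077, 395, 1631 and 1259 CPM, with SP to WT ratios of 0.60 on ND and 1.67 on HFD. WT-HFD was the low library, the HFD ratio was 1.53 with the stricter choice, and it was 0.73 in type B cells, 1.67 in principal cells and 1.66 in all other kept barcodes. Kap, an androgen-regulated gene of the proximal tubule, was at 2148, 2328, 345 and 609 CPM, with a ratio on ND of -2.64 in type A, -2.68 in type B and -2.73 in principal cells and -1.94 in all other kept barcodes. On HFD the Kap ratios were -1.94, -2.82, -1.12 and -0.94 in that order. Cyp4b1, Ugt2b38 and Acsm2, also proximal tubule genes, had ratios on ND of -1.75, -1.70 and -1.46, and with 10% of the library profile subtracted the Acsm2 ratio turned to 0.17.

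RNA of other cell types in type A cells differed by library. The 14 proximal tubule markers outside the rule summed to 3313, 4173, 961 and 1214 CPM in type A cells, with Kap the most abundant and 0 of 14 at 0, and to 11604, 2317, 3067 and 2988 CPM in lymphocytes. In type A cells both SP libraries were below both WT libraries, while in lymphocytes WT-HFD was lowest. Of these markers 9 were compared between SP-HFD and WT-HFD, and all 9 were at least 2-fold lower in SP-HFD, beside 1.8% of all genes compared, while with the stricter choice 7 were, without Slc27a2 and Ttc36. Their median ratio there was -1.87, and -3.33 with the unlimited choice. The 10 thick limb and distal convoluted tubule markers, which include Calb1 and Slc8a1, summed to 2925, 2231, 3428 and 1747 CPM, led by Calb1 on ND and Umod on HFD. Their sum was lower on HFD in WT, yet 5 of the 8 compared had HFD to ND ratios above 0 there, with a median of 0.60. In SP 1 of 8 was above 0, with a median of -0.73. The 10 principal cell markers summed to 4942, 2762, 3352 and 2747 CPM, led by Hsd11b2 on ND and Aqp2 on HFD. The median HFD to ND log2 ratio of the 9 compared was -0.88 in WT and -0.22 in SP. With the highest doublet scores removed it was -0.89 and -1.32. The part of all these markers in the results above was not tested.

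The 9 immune markers summed to 99.5, 165, 65.2 and 113 CPM, with Cd74 the most abundant, and with Cd3e at 0 in WT-HFD, Cd79a in SP-ND and S100a8 in SP-HFD. The 6 endothelial markers summed to 13.9, 145, 19.6 and 41.4 CPM, the 5 erythroid markers to 0.774, 74.5, 0.435 and 1.02 CPM and the 7 podocyte and mural markers to 143, 240.2, 78.2 and 40.9 CPM. WT-HFD was the highest library for all 4 lists. Its most abundant markers there were Cd74, Emcn, Hbb-bs and Acta2. Hbb-bs was found in 7 and Acta2 in 17 type A cells of WT-HFD. With the stricter choice the WT-HFD to WT-ND log2 ratio moved from 1.01 to 0.06 for Cd74 and from 3.95 to 3.39 for Emcn. The median of the 3 podocyte and mural markers compared moved from 2.14 to 0.07. The erythroid gene Alas2 was at 0 in each library, and the part of these lists in the results was not tested.

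The V-ATPase was followed through 20 subunit genes outside the rule, and 0 passed 2-fold in any of the 4 comparisons. Few genes of any kind did, with 3.1% and 1.31% of all genes compared between diets in WT and SP. Between genotypes the shares were 0.628% on ND and 1.9% on HFD. On HFD in SP mice all 17 subunits compared had ratios above 0, from 0.08 to 0.73 on the log2 scale, with a median of 0.41 beside 0.11 for all genes. In WT 13 of 17 were above 0, with a median of 0.24 beside -0.07. Atp6v0c, the proteolipid ring subunit gene, was at 1709.5, 2478, 1900.0 and 2943 CPM, higher in both HFD libraries than in both ND libraries. The medians for SP against WT were 0.06 on ND and 0.30 on HFD, beside -0.05 and 0.13 for all genes, and the latter was 0.21 with the stricter choice. With the unlimited choice the median was 0.07 for the diets in WT, beside -0.14 for all genes, and 0.57 for the genotypes on HFD, beside 0.22. In type B cells the medians were -0.08 in WT and 0.30 in SP between diets and -0.01 on ND and 0.43 on HFD between genotypes. In principal cells they were -0.09, -0.00, -0.02 and 0.11.

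Of 8 carbonic anhydrase genes 3 were compared, and 0 passed 2-fold. Of all genes compared, 3.1% passed between diets in WT and 1.31% in SP. Between genotypes 0.628% passed on ND and 1.9% on HFD. With shares this low, 0 of 3 does not set the list apart from all genes. Car2 was at 1849 CPM for WT-ND and 2848 for WT-HFD, against 1837 for SP-ND and 3215 for SP-HFD, with HFD to ND log2 ratios of 0.62 (0.57 to 0.67) in WT and 0.81 (0.76 to 0.86) in SP. Both HFD libraries were above both ND libraries. Car15, a membrane-bound form, was at 613, 437, 343 and 505 CPM, with ratios of -0.49 in WT and 0.56 in SP.

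Of 20 acid-base and ion transport genes, 13 were compared between diets in WT, with 1 at least 2-fold higher on HFD (Slc26a7) and 3 lower (Kcnj10, Slc8a1 and the proton-potassium pump gene Atp4a), beside 1.26% and 1.84% of all genes compared. Under the unlimited choice Slc26a7 fell just short of 2-fold in WT, as given above. In SP 12 were compared, with Slc26a7 higher and Kcnj10 and Slc8a1 lower, beside 0.519% and 0.796%. The list medians were -0.26 in WT and -0.16 in SP, beside -0.07 and 0.11 for all genes. Atp4a was at 126, 47.5, 98.2 and 71.9 CPM and Rhbg at 549, 756, 601 and 906 CPM, the latter higher in both HFD libraries than in both ND libraries.

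Of 22 regulators of intercalated cells 11 were compared between diets, and Hes1 passed 2-fold in WT, beside 1.84% of all genes lower there. The medians were -0.24 in WT and 0.12 in SP. Foxi1 was at 354, 241, 291 and 304 CPM, with HFD to ND ratios of -0.55 and 0.07. P2ry14, a UDP-glucose receptor gene, was at 65.4, 115, 74.3 and 119 CPM, with ratios of 0.81 and 0.68. Of 20 genes of innate defence and inflammation 4 were compared. Pigr, the polymeric immunoglobulin receptor gene, was at 58.5, 63.6, 67.4 and 30.0 CPM, more than 2-fold lower in SP-HFD than in SP-ND and WT-HFD, beside 0.796% and 1.8% of all genes, the former not with the stricter choice and the latter neither with the highest doublet scores removed nor with the unlimited choice. Nfkbia, which encodes an inhibitor of the factor NF-kappaB, was at 132, 75.5, 134 and 71.4 CPM. It was lower in both HFD libraries than in both ND libraries, with HFD to ND ratios of -0.81 (-1.05 to -0.56) in WT and -0.91 (-1.14 to -0.67) in SP, both short of 2-fold. The Nfkbia ratios in WT and SP were -1.66 and -1.01 in principal cells. They were above 0 in type B cells, at 0.48 and 0.56, and in all other kept barcodes, at 0.38 and 0.29. Defb1, an antimicrobial peptide gene, was at 2224, 3043, 2819 and 3083 CPM.

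Of 20 oxidative phosphorylation genes 0 passed 2-fold between diets, beside 3.1% of all genes in WT and 1.31% in SP. All 20 had ratios above 0 on HFD in SP and 18 of 20 in WT, with medians of 0.40 and 0.23 beside 0.11 and -0.07 for all genes. In type B cells the medians of the same genes were 0.05 in SP and -0.02 in WT, and in principal cells -0.09 and -0.36. For the unlimited choice the WT median in type A cells was 0.13. The medians of 12 glycolysis genes were 0.10 and 0.03. Of 20 genes of fatty acid oxidation and lipid handling 10 were compared in SP, with a median of 0.30, and 1 passed 2-fold, beside 0.519% of all genes higher, the fatty acid-binding protein gene Fabp4. It was at 17, 30.6, 1.3 and 63.8 CPM, and is known as a gene of endothelial cells and adipocytes. Methionine and S-adenosylmethionine cycle genes had medians of 0.32 over 4 genes in SP and -0.03 over 3 in WT. Of these 0 passed 2-fold, beside 1.31% of all genes in SP and 3.1% in WT. Mat2a, which encodes the catalytic subunit of an S-adenosylmethionine synthetase, was at 115, 175, 126 and 162 CPM. It was higher in both HFD libraries than in both ND libraries, with ratios of 0.61 (0.40 to 0.82) in WT and 0.37 (0.16 to 0.57) in SP, short of 2-fold. The Mat2a ratios in WT and SP were above 0 in the other classes too. They were 0.31 and 1.03 in type B cells, 1.70 and 1.52 in principal cells and 0.22 and 0.26 in all other kept barcodes.

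Immediate early genes respond quickly to stimuli including tissue dissociation. All 14 were compared between genotypes, and 1 was at least 2-fold lower in SP on ND and 4 on HFD, beside 0.489% and 1.8% of all genes. The ratios of SP to WT were below 0 for all 14 on each diet, with medians of -0.60 on ND and -0.55 on HFD, beside -0.05 and 0.13 for all genes. In all other kept barcodes the medians were 0.27 and 0.21, in type B cells -0.61 and -0.26, and in principal cells -0.32 and 0.13. Fosb was at 140.1, 139.7, 62.1 and 58.7 CPM and more than 2-fold lower in SP on both diets, and Atf3, Nr4a1 and Dusp1 passed 2-fold on HFD, Atf3 not with the stricter choice. With the unlimited choice 0 of the 14 passed 2-fold on HFD, with a median of -0.35, and the ratios of the 4 ran from -0.97 (Fosb) to -0.74 (Nr4a1). With the highest doublet scores removed 2 were at least 2-fold lower on ND and 7 on HFD, with medians of -0.74 and -0.96. With 10% of the library profile subtracted the counts were 3 and 4. Of 11 heat shock and chaperone genes 10 were compared, with SP to WT medians of -0.22 on ND and -0.20 on HFD, and 1 passed 2-fold between diets, Hsph1 in SP, beside 0.519% of all genes higher, though not with the highest doublet scores removed.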

How the data were processed

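Droplet single-cell RNA-Seq (10x) had been run on whole kidney of 4 groups of mice, 1 library each. The authors deposited matrices of UMI counts per gene and barcode, with totals of 93142028 UMIs for WT-ND and 115117649 for WT-HFD, then 111617794 for SP-ND and 90728590 for SP-HFD. The matrix headers name Cell Ranger 6.1.2, while the submitters' processing notes name Cell Ranger 2.1.1 and build mm10.

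UMIs of the chosen cells were summed per library, divided by their total and scaled to 1000000 (CPM) with pandas 2.3.3 and numpy 2.4.6 under Python 3.11.15. Intervals came from scipy 1.17.1. Levels have exact Poisson intervals, shares Clopper-Pearson intervals and ratios exact conditional binomial intervals, at 95%. With 1 library per group no test was made. Ratios use a floor of 3 UMIs where a sum was 0.

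Genes were named from the rule, the marker and gene lists, the 5 highest and 5 lowest ratios per comparison among genes with at least 100 CPM, and the highest and lowest ratios against other cells. The cells, lists and tests were chosen with earlier results of these data known. Doublets were not removed. As an alternative, barcodes with the highest share of simulated doublets among 50 neighbours (2000 genes, 30 components, scikit-learn 1.9.0) were removed, at 0.8% per 1000 kept barcodes. Principal cells had at least 5 UMIs and 10 per 10000 of Aqp2 plus Hsd11b2, and lymphocytes at least 3 UMIs and 10 per 10000 of T and B cell receptor complex genes and Ms4a1. Other alternatives changed the limits on mitochondrial share, depth, genes and markers, the scaling and the minimum level, and 1 without the limit on Slc34a1 plus Lrp2 was added after the data were seen. The ratio and interval calculations were tested on simulated data.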

Additional observations from a re-analysis of the deposited data

Results flagged for a closer look

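Among the genes described, 6 outside the rule had diet ratios whose counting intervals lay on opposite sides of 0 in the 2 genotypes, and the difference was not tested. HFD to ND log2 ratios were -0.49 in WT and 0.56 in SP for Car15, -0.47 and 0.47 for Gm10260, and -0.11 and 0.23 for the chaperone gene Hsp90ab1. They were -0.08 and 0.09 for the sodium pump subunit gene Atp1b1. For the thick limb gene Slc12a1 they were 0.76 and -0.89, and for Egf 0.43 and -0.56. The Car15 ratios in WT and SP were -0.63 and -0.74 in cells with a Slc26a7 UMI and -0.47 and 1.33 in cells without.

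Some barcodes met every other part of the rule and failed a single limit. The upper limit on detected genes alone left out 41 and 53 barcodes of the wild-type libraries on ND and HFD and 50 and 46 of the SP libraries. The mitochondrial limit alone left out 12, 22, 10 and 20 in that order. The limit on Slc34a1 plus Lrp2 alone left out 24, 206, 2 and 2 in that order, and the 206 of WT-HFD compare with 255 type A cells kept there.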

How the results depend on the processing

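No paired analysis was possible because there is 1 library per group. Causes of the shifts below were not tested. With the wild-type pair before the SP pair and ND before HFD in each, the type A share of kept barcodes was 1.94%, 2.07%, 1.51% and 2.78% with no mitochondrial limit and 3.06%, 3.08%, 3.20% and 4.56% with no upper gene limit. With Atp6v1g3 plus Atp6v0d2 at 20 per 10000 it was 2.33%, 2.1% and 2.24% in WT-ND, WT-HFD and SP-ND. With Slc34a1 plus Lrp2 under 3 per 10000 it was 2.14% in WT-ND and 1.67% in WT-HFD. With the stricter choice it was 2.22% in WT-ND, 1.80% in WT-HFD and 3.59% in SP-HFD. It was 3.33% in WT-ND with at least 1000 UMIs, and 3.33% in SP-HFD with the highest doublet scores removed. With no limit on Slc34a1 plus Lrp2, an alternative chosen after the data had been seen, it was 2.94%, 4.75%, 2.64% and 4.09%, and WT-HFD was highest. SP-HFD was highest in the other settings printed here for all 4. Of type A plus type B cells, type A cells were 68.9%, 64.8%, 70.8% and 75.1% with the stricter choice, 65.2% in WT-ND and 67.4% in SP-ND with mitochondrial UMIs under 30%, and 59.8% in WT-HFD with Slc34a1 plus Lrp2 under 3 per 10000.

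Genes past 2-fold numbered 50, 22, 9 and 27 at a minimum of 100 CPM and 3613, 2761, 3194 and 3382 with no minimum, for the diets in WT, the diets in SP, the genotypes on ND and the genotypes on HFD. For the diets in SP the count was 75 with mitochondrial UMIs under 30% and 83 without the highest doublet scores. For the genotypes on ND it was 28 at 20 per 10000, 28 with Slc34a1 plus Lrp2 under 3 per 10000 and 34 without the highest doublet scores. For the genotypes on HFD it was 30 with the stricter choice, 16 with Slc34a1 plus Lrp2 under 3 per 10000, 32 with no upper gene limit and 99 as a mean over cells. With no limit on Slc34a1 plus Lrp2 the counts were 212, 39, 31 and 145 for the 4 comparisons. Of 816 values of named genes under 12 alternatives, 592 stayed within their main interval and 223 moved outside it. Acsm2 changed sign for the genotypes on ND, at 0.17 with 10% of the library profile subtracted. With the same subtraction the HFD to ND ratios in SP could not be read for Pck1, Igkc and Igha. Each was given as -0.78, the value that the floor of 3 UMIs sets when both sums are 0. Their main ratios were 2.38, 4.77 and 7.19. Several of the 816 list medians changed sign. For WT-HFD against WT-ND with Slc34a1 plus Lrp2 under 3 per 10000, immune markers did at -0.59 and podocyte and mural markers at -2.16. Proximal tubule markers moved from 0.34 to -0.20 for the diets in WT with the stricter choice. For the genotypes on ND they moved from -0.80 to 0.17 with 10% of the library profile subtracted. For the genotypes on HFD, immune markers moved from -0.56 to 0.38 with the stricter choice. Principal cell markers moved there from 0.05 to -0.93 with the highest doublet scores removed. Genes under about 50 CPM rest on few UMIs, and no setting supplies the missing replicates.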
